A study of Mus musculus with 8 samples.

Results

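The cerebral cortex of wild-type mice was described at birth, gene by gene, from 4 Illumina bead arrays of 2 biological samples. A probe was counted as on when its detection p-value, which sets it against the array's background, was under 0.05 on all 4 arrays. Of 25697 probes, 10135 (39.4%) were on, and they stood for 7207 of 16561 named genes (43.5%), a gene being on when any of its probes was. A gene was off when no probe passed on any array, which held for 7798 genes (47.1%), and the remaining 1556 genes (9.4%) were partly detected. No genotype was compared, and with 1 group of 2 samples no test was possible, so all values below are descriptions.

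The series set the newborn cortex of wild-type mice against that of mice without the nuclear receptor ERRγ. The wild-type animals were at postnatal day 0, carried no allele or treatment that the labels name, and gave total RNA of the cerebral cortex. Each of the 2 wild-type samples was hybridised to 2 arrays, called here the first and the b array, and these were averaged before any sample value was taken. The labels name neither the strain and sex of the mice nor the number of animals behind a sample, so the SD over the 2 samples may be in part technical.

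The newborn mouse cortex is a tissue in transition. Its projection neurons have been born from radial glia and intermediate progenitors, the deep layers before the upper ones, and are extending axons and dendrites. Inhibitory interneurons have migrated in from the ventral forebrain, oligodendrocyte precursors are present but myelin is not yet made in quantity, and astrocytes are only beginning to multiply. Blood vessels, microglia, meninges and blood cells enter any piece of tissue that is cut from the brain.

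Mean intensity per array ran from 390.4 to 565.3 and the median from 126.5 to 149.5, and between 11022 and 11607 probes passed the detection threshold on an array. Signals are given on the normalized log2 scale, averaged over the samples as mean ± SD (n = 2), and a percentile is the place of a gene among the 7207 on genes, with 100 the brightest. On genes ran from 6.04 to 15.59 log2, with a median of 8.84 and quartiles at 7.53 and 10.17. Off genes lay between 4.64 and 5.86, with a median of 5.03, and partly detected genes between 5.22 and 6.71. The brightest values of the on genes thus stood over 10 log2 units above the median of the off genes, and the dimmest lay among the partly detected ones.

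Just inside the threshold stood Fkbp1b, Dhdh and Rgs6, whose highest detection p-value over the 4 arrays was 0.0489. Just outside stood Hrob, Grik2 and Abhd16b, with a highest p-value of 0.0501. The signal of Fkbp1b was 6.02, 6.75, 7.22 and 6.48 log2 on the 4 arrays, and that of Grik2, a kainate receptor subunit, was 6.26, 7.22, 6.54 and 5.89. These ranges overlap, so a gene near the threshold was on or partly detected by the value of 1 array.

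**Figure D1:**
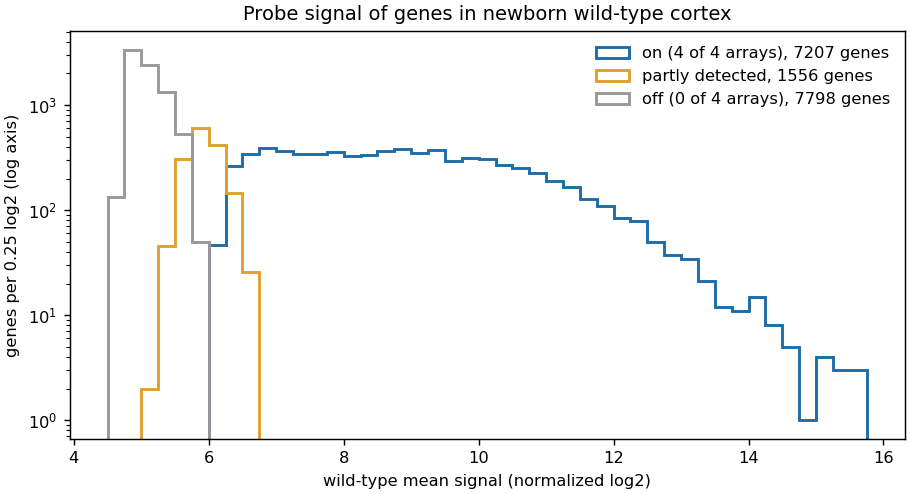
Histogram of the wild-type mean signal (normalized log2, bins of 0.25) of the 7207 on, 1556 partly detected and 7798 off genes, with the number of genes on a log axis. On genes spread from 6.04 to 15.59 log2, while off genes stayed under 5.86.

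Signals of different probes do not measure transcript numbers on a common scale, and the arrays show how far probes differ. Among 1722 genes with 2 or more on probes, the brightest and the dimmest on probe of a gene differed by a median of 1.23 log2, with quartiles of 0.56 and 2.3, and by more than 2 log2 in 31.4% of these genes. Of 4743 genes with several probes, 1117 had all of them on, 1392 had all of them off, and 1321 had 1 on and another off. Such mixed genes were 47.0% of the genes with several probes of which at least 1 was on. Tubb5, a beta tubulin, had a probe at 15.51 log2 and another, off, at 4.87. Tubb2b, the beta tubulin of young neurons, had 5 of 6 probes on, the brightest at 15.51 and the off probe at 4.88. The gaps of the elongation factor Eef1a1, the ribosomal proteins Rpl23 and Rpl37, and the ubiquitin ligase Ttc3 were 10.44, 10.34, 9.57 and 9.57 log2. The axonal protein Mapt (tau), Mllt11, the RNA helicase Ddx17 and the actin-nucleation subunit Arpc5 followed with gaps between 8.59 and 8.93. A gene called off by its only probe may therefore be transcribed, and 11818 genes had 1 probe, so off means not above background here, and ranks are ranks of probe signals.

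The brightest signals belonged to the cytoskeleton and to protein synthesis. Tuba1b, an alpha tubulin, headed the order with 15.61, 15.61, 15.61 and 15.55 log2 on the 4 arrays. Tubb5, Tubb2b and Tuba1a, the alpha tubulin of migrating neurons, stood at 15.51 ± 0.10, 15.51 ± 0.06 and 15.21 ± 0.00, so that 4 of the 30 brightest genes were tubulins. Quantile normalization gives all arrays the same set of values, which is why identical numbers recur at the top. The order among neighbours there was not resolved: Rplp1 was 15.19 in sample 1 and 15.36 in sample 2, and thereby lay on both sides of Rpl23, at 15.36 and 15.33.

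Cytosolic ribosomal proteins held 7 of the 30 and 22 of the 100 brightest places. They were Rpl23 (15.35 ± 0.02), Rplp1 (15.28 ± 0.12), Rpl41 (15.13 ± 0.11), Rpl38 (14.51 ± 0.15), Rpl37 (14.37), Rps14 (14.25) and Rpl3 (14.15) among the 30. The translation factors Eef1a1 and Eif4a1 stood at 15.32 ± 0.02 and 14.24 ± 0.03. Ubb-ps, at 15.03 log2, and Gm6548, at 14.56 log2, are annotated as transcribed pseudogenes, and their probes may also read the expressed genes they derive from, which these arrays cannot tell apart.

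Other members of the 30 are known from neurons and their cytoskeleton, although Mapt alone came from the general neuronal list and 11 of the 30 were in no list. Nrep, a small protein known from nerve regeneration, was 15.22 log2 in sample 1 and 15.21 log2 in sample 2. Jpt1, a microtubule-associated protein, was at 14.60 ± 0.09, Cdk5r1, the p35 activator of the neuronal kinase Cdk5, at 14.27, and Mapt at 14.19 ± 0.16. Actin and its monomer-binding thymosins were represented by Actb at 14.58 ± 0.02, Tmsb10 at 14.48 ± 0.29 and Tmsb4x at 14.27. The SD of Tmsb10 was the widest of the 30, with 14.28 log2 in sample 1 and 14.69 log2 in sample 2. Energy metabolism entered the 30 with the ATP synthase subunits Atp5b (14.61 ± 0.07) and Atp5g3 (14.21 ± 0.02) and with brain creatine kinase, Ckb (14.23). The remaining members were the protein-folding enzyme Ppia (15.00 ± 0.08), Ttc3 (14.35), the ferritin heavy chain Fth1 (14.26), the RNA-binding protein Hnrnpab (14.26 ± 0.09) and the cytokine Mif (14.19).

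The linear signal was spread over many genes. Quantile normalization gives all arrays the same set of values, so the closeness of the samples in the shares that follow was largely fixed beforehand. The 10 brightest genes took 5.02% of the summed signal of all on genes in sample 1 and 5.02% in sample 2. The 30 brightest took 10.3%, the 100 brightest, which are 1.39% of the on genes, took 20.6% in sample 1 and 20.7% in sample 2, and the 1000 brightest took 60.6% and 60.7%. Of the 100 brightest, 4 were general neuronal genes (Mapt, Stmn2, Dcx and Dpysl3) and 1 an upper layer gene (Lmo4), and 52 belonged to none of the 89 lists of genes used here.

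The promoters of on and off genes differed in base composition, and 1 example of each shows the contrast. Both windows run from 250 bases before to 50 bases after the start of the gene in RefSeq's annotation of GRCm38.p6, are written 5′ to 3′ on the strand of the gene, and have each CG dinucleotide in capitals. Tuba1b, the brightest gene, lies at chr15:98934341-98934640 on the minus strand. Alb, which encodes serum albumin of the liver and was off (4.79 and 4.93 log2), lies at chr5:90460620-90460919 on the plus strand.
Tuba1b: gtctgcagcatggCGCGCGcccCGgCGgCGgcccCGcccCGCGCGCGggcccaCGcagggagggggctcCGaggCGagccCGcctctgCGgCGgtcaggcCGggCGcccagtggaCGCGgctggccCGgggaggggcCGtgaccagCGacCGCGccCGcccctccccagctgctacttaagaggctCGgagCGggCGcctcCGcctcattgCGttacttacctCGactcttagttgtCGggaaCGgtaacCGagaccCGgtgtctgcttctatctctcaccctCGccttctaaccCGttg
Alb: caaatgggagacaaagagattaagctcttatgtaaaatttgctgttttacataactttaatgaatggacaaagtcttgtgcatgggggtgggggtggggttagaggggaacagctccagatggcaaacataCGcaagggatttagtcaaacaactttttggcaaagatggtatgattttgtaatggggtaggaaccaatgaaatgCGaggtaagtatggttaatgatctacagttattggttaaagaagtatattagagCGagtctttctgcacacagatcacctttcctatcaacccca
The Tuba1b window holds 39 CG, its ratio of observed to expected CG is 0.99, and G and C make up 72.7% of it. The Alb window holds 3 CG, with a ratio of 0.27 and 40.0% G and C. No TATAAA was found on either strand of these windows.

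A window was called CpG-rich when its CG ratio was at least 0.6 and its G and C content at least 50%, and 13300 of the named genes (80.3%) had a window. CpG-rich windows were found in 73.0% of 5907 on genes, in 49.3% of 1248 partly detected genes and in 27.9% of 6145 off genes, beside 49.9% of all genes of the array with a window. The RefSeq table as a whole, with 32851 windows, had a share of 33.5%. The share in off genes was 33.2% when olfactory, vomeronasal and taste receptors were left out, still below that of the on genes. Among on genes, the share was between 73.0% and 80.5% in the 7 brightest of 10 equal groups by signal and 69.2%, 64.9% and 58.8% in the dimmest 3. Of the 100 brightest genes, 76 had a window and 81.6% of these were CpG-rich. Genes are not replicates of each other, and these shares carry no test.

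Short motifs were counted on both strands of the windows. TATAAA, the core of the TATA box, was present in 6.84% of on genes and 18.8% of off genes, beside 12.8% of all genes of the array and 13.6% of all RefSeq windows, yet in 17.1% of the 100 brightest. GGGCGG, the letters bound by Sp1 factors, was present in 66.9% of on and 33.8% of off genes (50.2% of all genes of the array and 35.7% of all RefSeq windows), and CCGGAAGT, an ETS-type motif, in 9.41% of on and 2.59% of off genes (5.83% of the array's genes and 3.89% of all windows). CCAAT differed little, with 39.6% of on and 38.0% of off genes (38.7% of the array's genes and 37.4% of all windows). TCAAGGTCA, the form of the site of estrogen-related receptors, was present in 0.288% of on and 0.277% of off genes (0.293% of the array's genes and 0.423% of all windows), so the classes differed little. Both GGGCGG and CCGGAAGT contain a CG, and a match is a description of letters, not a bound site.

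Families that were mostly off differed in their promoters. None of 899 windows of olfactory receptors was CpG-rich, and 40.9% held TATAAA. Keratins and keratin-associated proteins had CpG-rich windows in 3.39% of 59 genes and TATAAA in 64.4%. The body-plan factors, few of which were on, had CpG-rich windows in 9 of 22 Hox genes (40.9%), 3 of 7 Pax genes (42.9%) and 12 of 22 Nkx, Gata and Tbx genes (54.5%), shares of small lists near the 49.9% of the array. These counts cover all members with a window, including those that were on or partly detected. Cycling-cell genes, in contrast a list that was mostly on, had CCAAT in 87.5% and GGGCGG in 93.8% of 16 windows. Over all genes of the array these shares were 38.7% and 50.2%, and Hox windows held CCAAT in 63.6%.

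**Figure D2:**
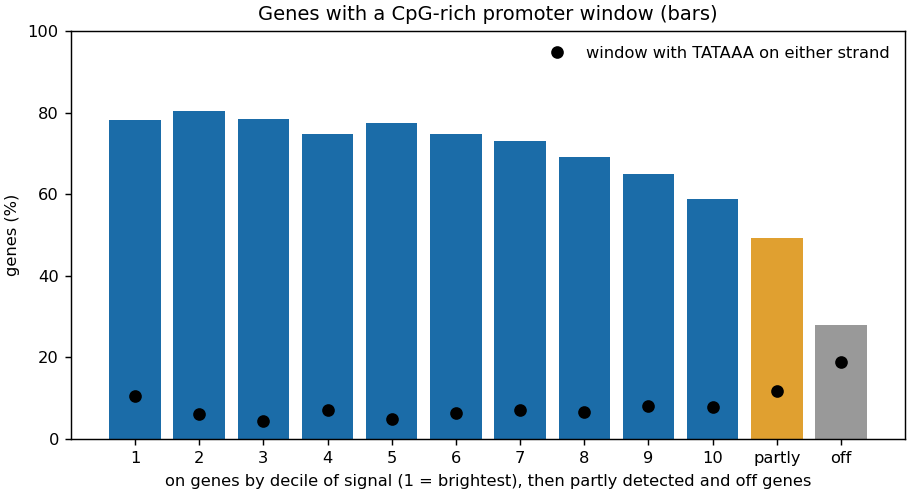
Share of genes with a CpG-rich promoter window (bars, percent of genes with a window) in 10 groups of on genes by signal, from the brightest group, and in partly detected and off genes, with the share holding TATAAA as black points. The bars lie between 73.0% and 80.5% in the 7 brightest groups and fall to 58.8% in the dimmest. They stand at 49.3% in partly detected and 27.9% in off genes.

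Markers of neurons led the cell type content. Of 18 general neuronal genes on the array, 15 were on (83.3%, against 43.5% of all genes), 1 was partly detected and 2 were off, and the on members had a median percentile of 95.7 with 9 of them in the top 10%. Mapt was 14.31 log2 in sample 1 and 14.08 log2 in sample 2. Stmn2, a microtubule destabiliser of growth cones, was 13.72 and 13.98, and Dcx, the doublecortin of migrating neurons, was 13.35 and 13.22. Dpysl3, a mediator of growth cone signalling, Map2, of dendrites, and Gap43, of growth cones, averaged 13.21 ± 0.19, 12.92 ± 0.01 and 12.31 ± 0.18. The mature neuronal splicing factor Rbfox3 (NeuN) was on at 11.99 ± 0.01. The neurofilament gene Nefl (4.94) and the synaptic gene Snap25 (5.30) were off by their only probe, and the neuronal tubulin Tubb3, with 5.40 and 5.92 log2, was only partly detected, although it is known as a marker of young neurons. In whole tissue, fewer cells of a type and less RNA per cell cannot be told apart, here and in all lists that follow.

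Deep layer projection neurons had 11 of 14 markers on (78.6%, against 43.5% of all genes), with a median percentile of 82.8. Tle4, a corepressor of layer 6, was 12.44 and 12.28 log2 in samples 1 and 2, and Bcl11b (Ctip2), which directs subcerebral projection, was 12.35 and 12.22. Sox5 was 11.89 and 11.93 log2 in samples 1 and 2. For all of these the samples lay close together beside the distance to background. Ldb2, Tbr1, the layer 6 regulator, Ntsr1 and Fezf2, the layer 5 regulator, averaged 11.59 ± 0.08, 10.78 ± 0.13, 10.63 ± 0.08 and 10.69 ± 0.24. Tcerg1l and Pcp4 were off and Foxp2 was partly detected.

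Upper layer markers were on in 7 of 11 cases (63.6%), with a median percentile of 54.1. Lmo4, which is also transcribed outside the upper layers, was 13.30 and 13.14 log2, and the activity-regulated factor Mef2c was 12.21 and 12.53. Cux1, Inhba and Cux2 averaged 9.95 ± 0.02, 9.03 ± 0.15 and 8.76 ± 0.32. Unc5d and Rasgrf2 were off, and Plxnd1, at 5.91 and 7.02 log2, and Rorb were partly detected. Subplate neurons had 3 of 7 markers on (42.9%, near the 43.5% of all genes). These were Ccn2 (8.97 ± 0.10), Nr4a2 (8.49 ± 0.36) and Kcnab1 (8.03 ± 0.10).

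Reelin, the secreted signal of Cajal-Retzius cells that orders the layers, stood far above the other markers of its list. Reln was 12.41 log2 in sample 1 and 12.79 log2 in sample 2, at percentile 97.5, while Calb2 and Ndnf averaged 9.18 ± 0.23 and 6.78 ± 0.15. The other 5 of the 8 markers were off or partly detected, among them Trp73, Lhx1 and Lhx5, which are more restricted to these cells. The share on was 37.5%, against 43.5% of all genes.

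Inhibitory interneuron markers were on in 11 of 18 cases (61.1%, against 43.5% of all genes), with a median percentile of 61.3. The neuropeptide gene Npy was 11.45 and 11.57 log2, the ventral forebrain factor Dlx1 was 10.44 and 10.86, and the vesicular GABA transporter Slc32a1 was 10.47 and 10.46. Cck, the peptide cholecystokinin, had the widest gap of the group, with 10.71 log2 in sample 1 and 10.05 log2 in sample 2. The GABA-synthesising enzyme Gad1 (9.39 ± 0.35) was on while Gad2 (4.85) was off, and Sst was on (10.08 ± 0.05) while Vip and Pvalb, which mark late-maturing interneurons, were off. Dlx5, Lhx6 and Sp9 were off as well, which leaves the list split among genes of the same cells.

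Markers of regions next to the cortex were on about as often as genes in general, of which 43.5% were on. Of 12 markers of striatal projection neurons, 6 were on, with a median percentile of 42.4, led by Meis2 (11.33 ± 0.24) and Foxp1 (9.83 ± 0.24), both of which are transcribed in cortex too. More restricted members were dimmer, with Ppp1r1b (DARPP-32) at 8.76 ± 0.12, Rgs9 at 8.12 ± 0.04 and the dopamine receptor Drd1 at 7.82 ± 0.09, and Tac1, Isl1, Rarb and Ebf1 were off. Thalamic markers were on in 2 of 6 cases, with Slc17a6, the vesicular glutamate transporter VGLUT2, at 11.14 ± 0.10 and Ntng1 at 8.53 ± 0.24, while Gbx2, Lhx9 and Zic4 were off. Hippocampal markers were on in 2 of 5 cases, Prox1 at 8.05 ± 0.21 and Grik4 at 6.61 ± 0.35. Whether tissue of these regions was part of the dissection was not tested.

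Progenitor markers spread over the whole order of signals. Radial glia had 9 of 15 markers on, with a median percentile of 46.0, led by the glutamate transporter Slc1a3 (12.32 and 12.22 log2), the matrix protein Tnc (10.78 and 10.78) and the endothelin receptor Ednrb (10.28 and 10.12). Slc1a3 and Tnc are shared with young astrocytes. The intermediate filaments Vim and Nes averaged 9.46 ± 0.19 and 8.64 ± 0.12, and Sox2 averaged 7.61 ± 0.20. Pax6, Hopx, Fam107a and Prom1 were off, each by its only probe, between 4.78 and 5.50 log2. Intermediate progenitors had 3 of 9 on (33.3%, below the share of all genes), with a median percentile of 64.1. These were Insm1 (10.59 ± 0.03), Gadd45g (9.52 ± 0.03) and Neurog2 (7.18 ± 0.27), with Neurog1, Btg2, Neurod4 and Sstr2 off.

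Cycling-cell genes were nearly all detected but dim. The list had 15 of 18 on (83.3%, the share of the neuronal list, against 43.5% of all genes). Its median percentile was 27.7, with none in the top 10%. The centromeric histone Cenpa was 10.12 and 10.05 log2, and the replicative helicase subunits Mcm4, Mcm5 and Mcm6 averaged 10.06 ± 0.13, 9.39 ± 0.02 and 9.16 ± 0.17. The mitotic genes Top2a and Cdk1 averaged 8.14 ± 0.04 and 7.43 ± 0.04, and the cyclins Ccnb2 and Ccna2 and the ubiquitin-conjugating enzyme Ube2c were off.

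Markers of oligodendrocyte precursors and astrocytes were on about as often as genes in general (43.5%), and myelin genes less often. Oligodendrocyte precursors had 3 of 6 markers on, with Olig1 at 12.08 and 12.09 log2, the growth factor receptor Pdgfra at 9.13 and 9.23, and Cspg4 (NG2) at 7.09 and 7.25. Olig2, the partner of Olig1, was off at 5.61 ± 0.02 by its only probe, and Nkx2-2 of the same list was off at 5.05. Myelin genes were on in 1 of 10 cases, Mbp, with 8.72 and 8.53 log2, while Mag, Mog, Mobp and Cldn11 were off. Astrocyte markers were on in 6 of 13 cases (46.2%, median percentile 25.6), with Aldoc at 10.84 ± 0.04, the gap junction protein Gja1 at 9.25 and 8.74, Apoe at 8.06 and 7.42, and Sparcl1 at 7.36 and 7.44. Gfap, Gjb6, S100b and Mlc1, which mark mature astrocytes, were off, and the water channel Aqp4 and the glutamate transporter Slc1a2 were partly detected.

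Endothelial markers were detected above the overall share of 43.5%, and microglial and pericyte markers close to it at low signals. Endothelial cells had 10 of 16 markers on (62.5%, median percentile 59.1). The tight junction protein Cldn5 was at 9.99 ± 0.01 log2, Esam at 9.55 and 9.45, and the blood-brain barrier glucose transporter Slc2a1 at 9.65 and 9.31. Cdh5 (5.44), Slco1a4 (5.16) and Abcb1a (4.96) of the same list were off. Pericyte and smooth muscle markers were on in 5 of 11 cases (45.5%) with a median percentile of 2.8, led by Vtn (7.44 ± 0.33) and Rgs5 (6.50 ± 0.19). Pdgfrb, Kcnj8, Anpep and Tagln of that list were off. Microglia had 6 of 14 on (42.9%) with a median percentile of 9.0. The lysosomal protein Laptm5 stood at 9.42 ± 0.26 and the complement gene C1qb and the receptor Csf1r at 7.10 ± 0.01 and 6.78 ± 0.04, while C1qa, P2ry12, Tmem119 and Itgam were off. Lymphocyte and granulocyte markers were on in 1 of 10 cases, the B cell gene Ms4a1 at 6.29 ± 0.07.

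Blood was visible through haemoglobin, but most erythroid markers were not on. Of 8 on the array, 2 were on, a smaller share than the 43.5% of all genes. Of the others, 1 was partly detected and 5 were off. Hba-a1 was 12.29 log2 in sample 1 and 12.46 log2 in sample 2, and Hbb-bt was 8.82 and 8.36, while Hbb-b2, the embryonic Hbb-bh1 and Hbb-y, and the red cell anion exchanger Slc4a1 were off. Of the meninges and fibroblast list 1 of 11 was on, the growth factor Igf2 (10.66 and 10.55), which vessels and choroid plexus also make, and the collagens Col1a1, Col1a2 and Col3a1 and the proteoglycan Lum were off. Choroid plexus and ependymal markers were on in 2 of 9 cases, Foxj1 (6.77 ± 0.29) and Aqp1 (6.38 ± 0.41). Ttr, the most abundant choroid transcript known, was at background by its only probe, with 4.97 and 5.19 log2. The summed linear signal was 5580 and 6070 for the erythroid list in samples 1 and 2, and 374 and 330 for choroid plexus. It was 1880 and 1740 for meninges, and 85500 and 84700 for the general neuronal list. The lists differ in length and probe signals share no common scale, so these sums do not compare amounts of tissue. Igf2 was the only on gene behind the meninges sum, and Hba-a1 and Hbb-bt were the only ones behind the erythroid sum.

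**Figure D3:**
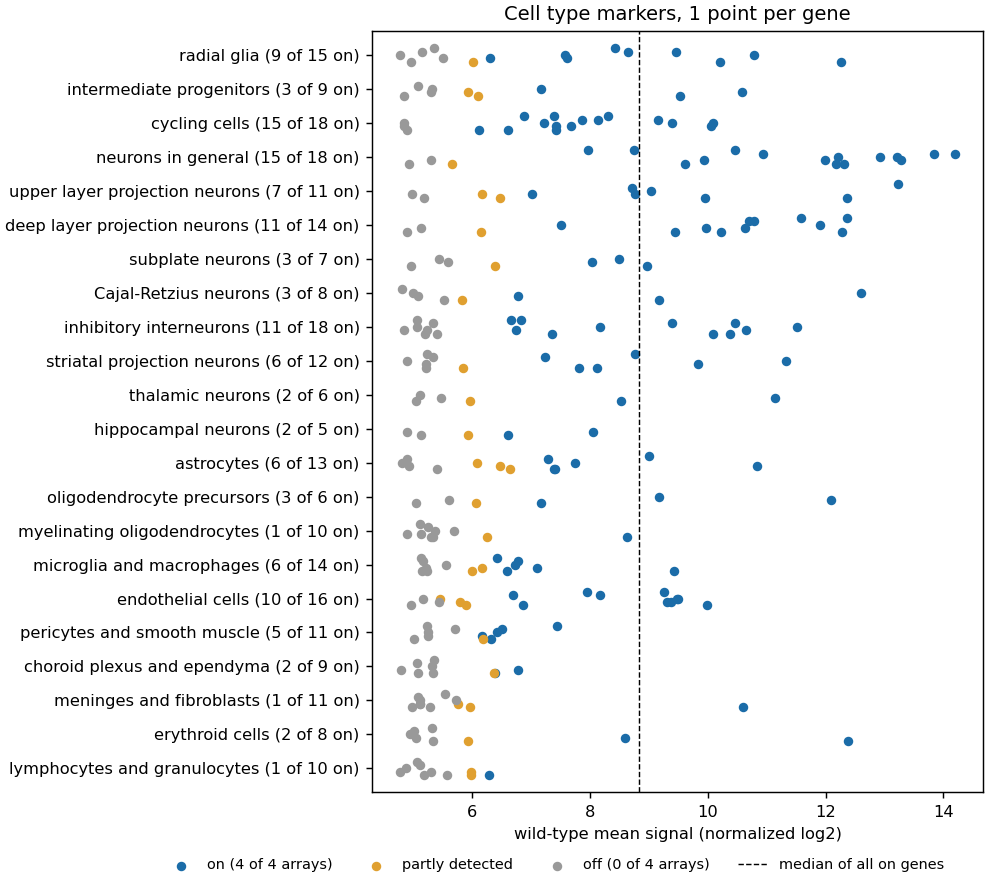
Wild-type mean signal (normalized log2, horizontal) of each marker gene in 22 cell type lists, with on genes in blue, partly detected genes in orange, off genes in grey, and the median of all on genes (8.84) as a dashed line. General neuronal and deep layer markers lie mostly right of the line, microglial and pericyte markers mostly left of it.

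Markers of other organs were mostly at background, while 43.5% of all genes were on. Of 61 genes that mark liver, skeletal muscle, heart, pancreas, kidney, testis, intestine, lung, retina or lens, 3 were on (4.92%), 9 were partly detected and 49 were off. The on genes were Slc12a3, the thiazide-sensitive transporter of the kidney (9.37 ± 0.01, 1 of 3 probes), and the muscle genes Acta1 (7.34 ± 0.31) and Actn3 (6.33 ± 0.15, 1 of 3 probes). The liver genes Alb, Cyp2e1, Serpina1a and Fga were off between 4.86 and 5.53 log2, and so were the heart genes Myh6, Nppa, Tnni3 and Myl2. Olfactory receptors, which belong to the nasal epithelium, had 13 of 1062 genes on (1.22%), 58 partly detected and 991 off. Of their 1148 probes, between 2.96% and 3.92% passed the threshold on any given array and 1.13% on all 4. Olfr724 was the brightest of them at 7.70 ± 0.06, with 7.94, 7.37, 7.93 and 7.56 log2 on the 4 arrays, and Olfr323 followed at 7.35 ± 0.17. None of 176 vomeronasal and taste receptors was on.

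Among gene families, the machinery of RNA and protein was the most widely detected, while 43.5% of all genes were on. Splicing factors of the hnRNP and SR families were on in 24 of 27 cases (88.9%), and cytosolic ribosomal proteins in 48 of 57 (84.2%), 36 of them in the top 10% of the on genes. Mitochondrial ribosomal proteins were on in 64 of 74 cases (86.5%) but lower in the order, with a median percentile of 67.6 against 98.0 for the cytosolic ones, and Mrps24 was their brightest at 12.36 ± 0.07. Respiratory complexes and ATP synthase were on in 60 of 73 cases (82.2%), with 32 in the top 10% and Atp5b, Atp5g3, Cox5b (13.22 ± 0.01) and Cox5a (12.82 ± 0.09) on top. Proteasome subunits had 30 of 36 on, led by Psmb4 (13.05 ± 0.02). Members that were off included Rpl14, at 4.93, Rpl17, at 5.02, and the proteasome subunits Psma1, Psma3 and Psma6, between 4.76 and 4.82. These are parts of every ribosome or proteasome, and each was off by 1 probe, so such calls show the limit of a probe at background.

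The cytoskeleton and trafficking families were detected above the overall share of 43.5% as well. Tubulins were on in 9 of 15 cases, with a median percentile of 98.9, and Tuba8, Tubb1 and Tubb2a were off. Kinesins were on in 17 of 29 cases, led by Kif5c (12.63 ± 0.09), Kif1b (12.09 ± 0.04) and Kif3c (12.04 ± 0.09), motors of axonal transport. Rab GTPases were on in 38 of 57 cases, led by Rab11b (13.65 ± 0.06), and synaptotagmins, syntaxins and synaptobrevins in 20 of 37, led by Syt4 (13.03 ± 0.04). Axon guidance ligands and receptors were on in 36 of 61 cases (59.0%, median percentile 53.0). Ephb1 was 10.94 and 10.99 log2, Efna5 was 10.99 and 10.76, and the Slit receptor Robo1 was 10.72 and 10.95.

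Receptors and channels were detected to different extents around the 43.5% over all genes. Glutamate receptors were on in 7 of 18 cases (38.9%, near that share), with the AMPA subunit Gria2 at 11.85 and 12.15 log2, Grik5 at 9.23 and 9.27, and Gria1 at 8.96 and 8.44, and the NMDA subunits Grin2a, Grin2b, Grin2c and Grin2d were off. Of GABA-A and glycine receptors 3 of 19 were on, the fetal glycine subunit Glra2 (10.77 and 10.92 log2), Gabrb1 (8.24 and 7.94) and Gabra3 (7.36 and 7.15). Receptors for acetylcholine, serotonin, dopamine and noradrenaline were on in 8 of 42 cases, and potassium channels in 22 of 78 (28.2%), with a median percentile of 16.6 for the channels. Sodium and calcium channels, in contrast, were on in 16 of 28 cases (57.1%), with the T-type calcium channel Cacna1h (11.47 ± 0.20) and Scn3b (10.15 ± 0.16) on top.

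A list of transporters and receptor subunits known to change as the brain matures had 4 of 11 genes on (36.4%, against 43.5% of all genes) and 7 off. The chloride importer Slc12a2 (NKCC1) was 11.08 and 11.43 log2, and the exporter Slc12a5 (KCC2), which replaces it later, was off at 4.97 and 4.85. The vesicular glutamate transporter Slc17a6 was 11.21 and 11.08, and Slc17a7, the adult cortical form, was 7.46 and 7.17. Gabra3 was the other on member. The NMDA subunit Grin2b, known as the early form, was off at 5.46 and 5.15 log2, as was Grin2a, known as the later one. Signals of different probes do not give the ratio of such genes, and the calls of Slc12a5, Grin2a and Grin2b rest on 1 probe each.

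Families of developmental regulators ranged from above the 43.5% over all genes to 0. Sox factors were on in 7 of 16 cases (43.8%, at that share), led by Sox5 (11.91 ± 0.03) and Sox21 (10.35 ± 0.15), and Pou factors in 5 of 9 (55.6%), led by Pou3f1 (11.62 ± 0.01). Neural bHLH factors had 9 of 27 on, with Id2 (11.16 ± 0.04), Hes6 (10.43 ± 0.02) and Neurod2 (9.98 ± 0.13) behind Olig1. Forkhead factors were on in 13 of 41 cases and Lim-homeobox factors in 2 of 12, Lhx2 (8.71 ± 0.01), a factor of cortical fate, and Lmx1b (6.69 ± 0.13). Hox factors, which pattern the body behind the forebrain, were on in 1 of 38 cases, Hoxa13 at 7.17 ± 0.15, and none of 9 Pax or of 29 Nkx, Gata and Tbx factors was on. Of Wnt ligands and Frizzled receptors 5 of 28 were on, and Wnt7b (11.76 and 11.72 log2) and Wnt7a (8.08 and 8.54), which act on brain vessels, were the brightest. Nuclear receptors had 8 of 41 on, with Rxrb at 10.64 ± 0.14 and Esrra (ERRα) at 8.53 ± 0.11. Esrrg, the gene of the receptor ERRγ that the series is about, was off in wild type, at 4.95, 4.88, 4.91 and 4.95 log2 on the 4 arrays, by 1 probe.

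Families of immunity, barrier and detoxification were mostly at background, while 43.5% of all genes were on. Interleukins and their receptors were on in 5 of 73 cases (6.85%), chemokines and their receptors in 6 of 52, MHC genes in 2 of 29, Toll-like receptors and interferons in 1 of 29, and Ly49 and NK receptors in none of 23. An exception was the chemokine gene Ccl27a, at 12.07 and 11.89 log2 (percentile 94.8). Cytochrome P450 enzymes were on in 5 of 75 cases, serpins in 3 of 49, keratins and keratin-associated proteins in 3 of 76, defensins in 1 of 46 and crystallins in 1 of 18. The on keratin with the highest signal was Krt10 (9.80 ± 0.01), and the pregnancy-specific glycoprotein Psg23, of a family known from placenta, was on at 8.79 and 8.57 log2. Solute carriers, a family of many tissues, were on in 144 of 339 cases (42.5%), and Zfp zinc finger proteins in 147 of 283 (51.9%), near the share over all genes or moderately above it. In all, 31 of the 89 lists had a larger and 58 a smaller share of on genes than the array as a whole.

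**Figure D4:**
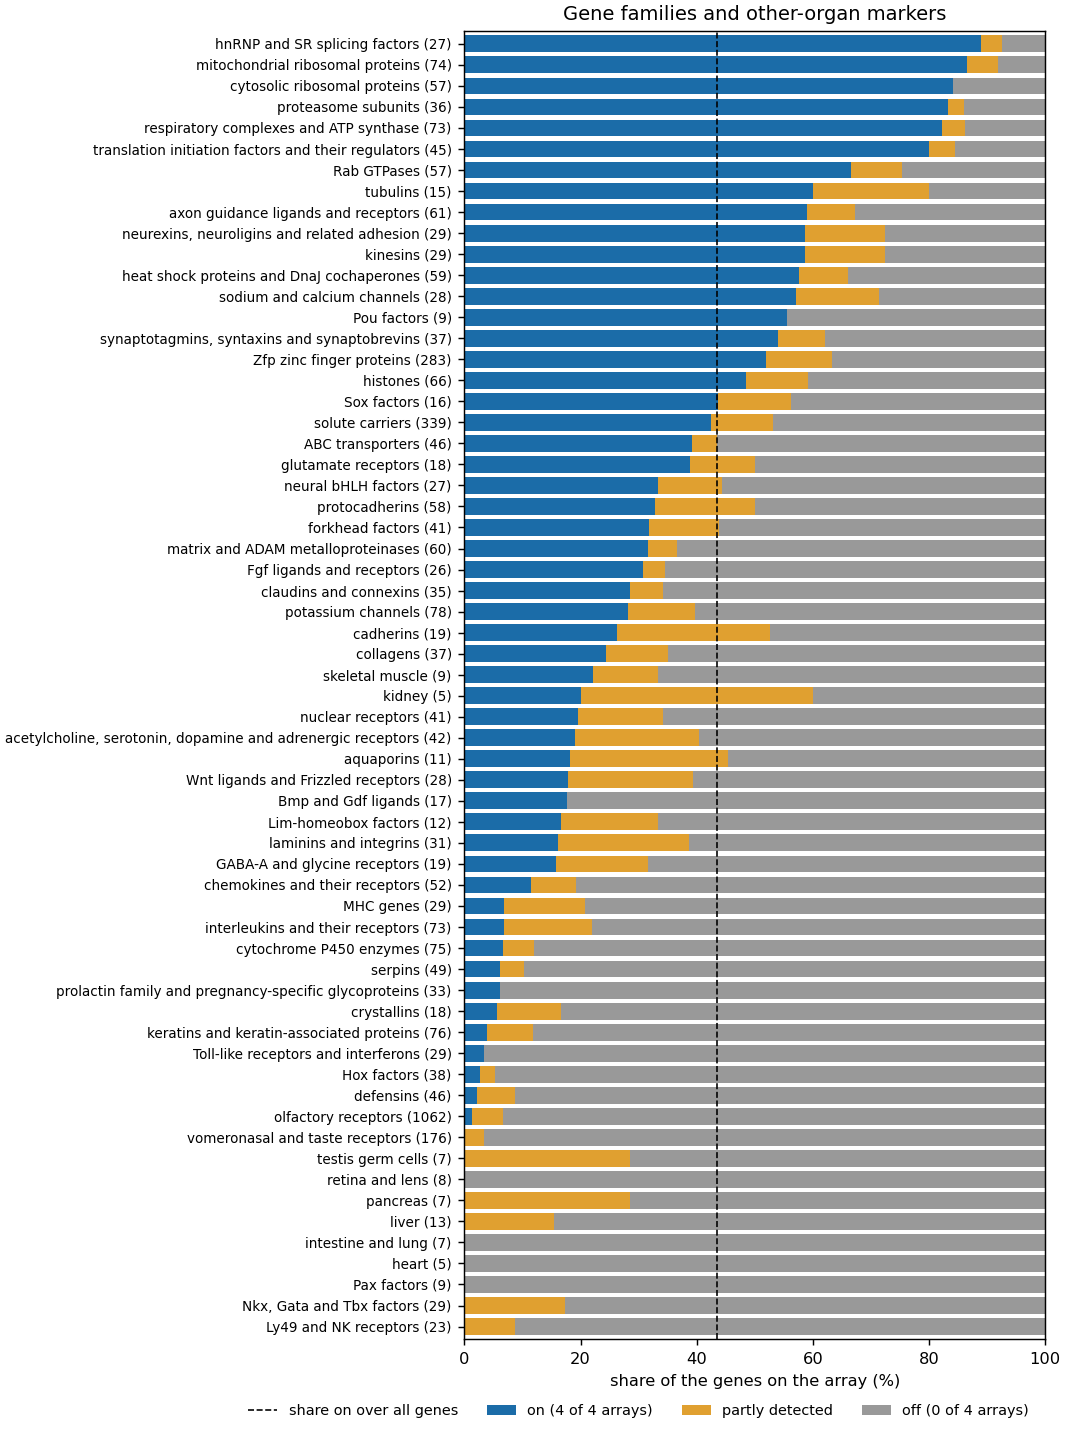
Share of genes on, partly detected and off (stacked bars, percent of the genes of a family on the array) for the gene families and the lists of other organs, with the 43.5% on among all genes as a dashed line. Splicing, ribosomal, proteasome and respiratory families lie above the line, and Hox, Pax, keratin, defensin and chemosensory families lie at or near 0.

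Some other lists are given here beside the 43.5% of all genes that were on. Of 11 reference genes used to scale assays 10 were on (90.9%), with a median percentile of 97.8, and Pgk1 (5.60 ± 0.23) was off. Only 4 of the 11 had all of their probes on. Immediate early genes were on in 4 of 18 cases (22.2%). These were Egr1 (9.79 and 10.08 log2), Dusp1 (9.94 and 9.80), Nr4a2 and Jun (7.89 and 7.48), and Fos, Fosb, Egr4 and Arc were off. Imprinted genes, which are read from 1 parental copy, were on in 10 of 15 cases (66.7%). Ndn (13.18 and 12.91), Cdkn1c (11.96 and 12.02), Nnat (11.27 and 11.31) and Igf2 were the brightest. The Y-linked gene Eif2s3y was on in both samples, with 10.01 and 9.92 log2 on the arrays of sample 1 and 9.71 and 9.26 log2 on those of sample 2. Kdm5d (6.83 and 6.81) and Uty (6.65 and 6.36) were on as well, while Xist, the RNA of the inactive X chromosome, passed on 1 of 4 arrays. Noncoding RNA was thinly covered: 8 of 33 long noncoding RNA genes (24.2%) and 17 of 76 transcribed pseudogenes (22.4%) were on, against 7176 of 16436 protein-coding genes (43.7%).

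The spread between the samples overlapped with that between arrays of 1 sample. Over the on genes, the log2 difference had an SD of 0.303 between the arrays of sample 1 and 0.258 between those of sample 2. Between arrays of different samples it ran from 0.285 to 0.325. Between the sample means it was 0.233, but each mean averages 2 arrays, which lowers the SD, so this value is not comparable with those of single arrays. The rank correlation across the 7207 genes, which are not independent replicates, was 0.9894 between sample means. The median absolute difference of sample means was 0.146 log2, 282 genes (3.91%) differed by over 0.5 and 4 by over 1. Both arrays of sample 1 lay above both of sample 2 for 1534 genes and below both for 1286, together 39.1% of the on genes. With so few arrays, such a separation also arises often where samples do not differ. The share is therefore no count of genes that differ between the samples.

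Among the genes whose arrays did not overlap, Xlr4a, an X-linked lymphocyte-regulated gene, differed most. Its signal was 8.28 and 8.43 log2 on the arrays of sample 1 and 9.71 and 9.61 log2 on those of sample 2, a difference of -1.31. Trappc2, a vesicle-tethering subunit, differed by -1.18, with 6.06 and 7.14 log2 in sample 1 and 7.87 and 7.69 log2 in sample 2, so its arrays within sample 1 lay nearly as far apart. The vasopressin receptor Avpr1a was higher in sample 1, with 6.94 and 7.63 log2 against 6.09 and 6.22 log2 in sample 2, a difference of 1.12. The other 9 of the 12 largest were Herpud2 (-1.06), Eml5 (-0.95) and Polr3e (-0.85), lower in sample 1, and Bach1, Cldn15, Opa3, Tgfb2, Notch3 and Rfx4, higher in sample 1 by 0.82 to 0.88. All but Xlr4a had a mean signal below the median of the on genes, where the plot of sample differences is wider. With 1 value per sample these are descriptions of 2 samples, and no cause was tested.

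**Figure D5:**
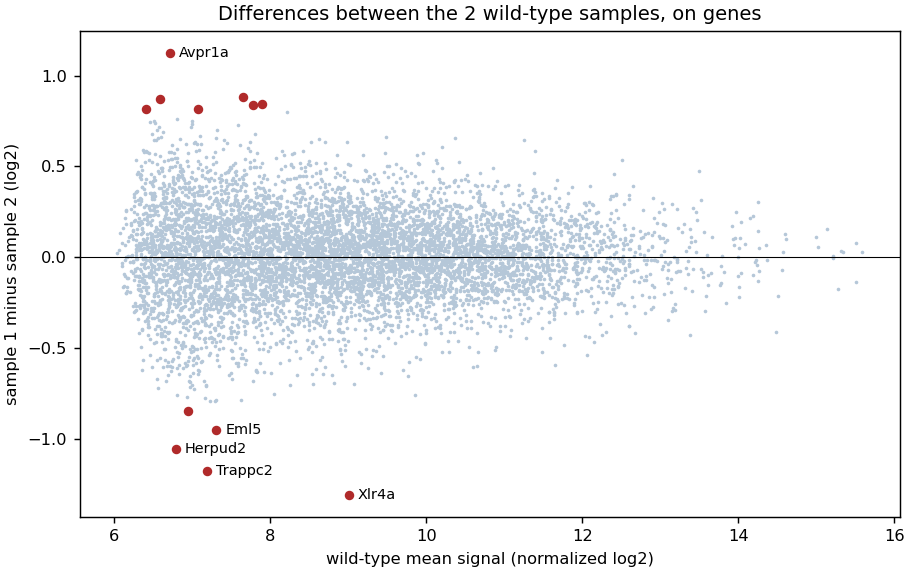
Difference between the sample means (sample 1 minus sample 2, log2, vertical) against the wild-type mean signal (normalized log2, horizontal) for the 7207 on genes, 1 point per gene, with the 12 genes of largest non-overlapping difference in red. The cloud is wider at low signal, and Xlr4a (-1.31) and Avpr1a (1.12) mark its ends.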

How the data were processed

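Biotinylated cRNA made from total RNA was hybridised to Illumina bead arrays. The authors deposited 1 intensity per probe and array, linear and not normalized as far as the values show, with a detection p-value beside it, per the file headers. The submitters' processing notes name GenomeStudio, and its version, settings and background method are not stated. The authors' normalized intensity table served only as an alternative.

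In R 4.3.3 with limma 3.58.1, neqc was run over all 8 arrays of the series (normexp background through the detection p-values, offset 16, quantile normalization, log2). The arrays of a sample were then averaged, which left n = 2. A gene took its brightest on probe. Summed linear signals are the normalized values less the offset, over all members of a list. The platform annotation gave 1 symbol to 23846 of 25697 probes, several to 0 and none to 1851 (685 of these were on). RefSeq (GRCm38.p6) held the Entrez identifiers of 23830, and 0 symbols changed. Promoter windows are RefSeq's, the first per gene, and 2350 genes had more than 1. The arrays' number, not a read depth, limits the precision.

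The genes named were the 30 brightest on genes, up to 4 on and 4 off members of each list (up to 8 on for other organs), the 12 largest sample differences, the threshold neighbours and the 10 widest probe gaps. Other list members in the text were picked after their values were seen. Members and lists were chosen with earlier results of these data known, and several families were collected by the pattern of their symbols. Alternatives covered the threshold, the arrays required, the normalization, the probe rule and each sample left out. No test was made, since there was 1 group.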

Additional observations from a re-analysis of the deposited data

How the results depend on the processing

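No paired analysis was possible because there was 1 group and no test. With 1 sample left out, 10562 to 10676 probes and 7497 to 7532 genes were on, 8147 to 8227 genes were off, 33 lists had a larger and 56 a smaller share on than all genes, 93 to 97 of the 100 brightest genes were shared, and 72.0% to 72.5% of on genes had a CpG-rich window. A detection p under 0.01 left 6309 genes on, and requiring all probes of a gene left 5511. The CpG-rich share of on genes was 54.0% (18.6% of off genes) at a CG ratio of 0.75, and 74.9% (30.6%) at p under 0.01. The SD between sample means was 0.18 in the deposited normalized table. Between single arrays of the samples it was 0.325 with the first arrays and 0.285 with the b arrays. All 100 brightest genes were shared under the other 4 normalizations and backgrounds, and 78 when on probes were averaged. The 4 kept the on calls and the brightest-probe rule. Quantile normalization and background correction keep the order of probes within an array, so that sharing was largely fixed beforehand. At p under 0.01, 21 of 89 list counts moved by over 1.5 times, among them microglia, to 2 on, pericytes, to 1, choroid plexus, to 0, and olfactory receptors, to 3 (23 without sample 2). When all probes had to be on, 18 moved, among them the reference genes, from 10 to 4, and Fgf ligands and receptors, from 8 to 1. The side of a list against all genes changed for 3 lists at p under 0.01 (subplate, pericytes, Pou), for 4 with all probes (Cajal-Retzius, astrocytes, sex-linked, Sox), and for 2 without sample 1 and 2 without sample 2, microglia in both.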
